A study of Mus musculus with 4 samples.

Results

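The 142 plasmacytoid dendritic cells described here came from lung tumors of 4 female mice and were chosen by their own transcript counts among 20351 cells. Each cell had at least 200 detected genes, at most 13.4% of its unique molecular identifiers (UMIs, one per captured transcript) in mitochondrial genes, at least 3 UMIs of Siglech, at least 1 UMI of Ccr9, Cox6a2 and Tcf4 summed, at most 3 UMIs of the C1q genes summed, none of Cd3d, Cd3e and Cd3g, and at most 1 of Cd79a. They made up 0.714% (0.602 to 0.841) of the 19892 cells that passed the filter on genes and mitochondrial UMIs. Values in brackets after a level, ratio or share are 95% intervals that cover counting error only.

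All mice carried Lkb1XTR/XTR and Rosa26LSL-tdTomato, with which Cre flips a gene trap into Lkb1 (Stk11) and switches on a tdTomato reporter. The 2 Restored mice also carried FLPo-ERT2 at Rosa26, a tamoxifen-activated recombinase that excises the trap, and the 2 Non-Restored mice did not. Tumors were started by Lenti-Cre given into the airway and grew for 16 weeks, 4 mg doses of tamoxifen preceded harvest in every mouse according to the sample labels (the series' design text also names a corn oil vehicle), and viable (DAPI-negative) cells of all types from dissected tumors were loaded with a target of 8000 cells a mouse for 3′ single-cell RNA sequencing. The deposited matrix holds the cells of all mice as 1 pool with no map from cells to mice. It therefore counts as 1 sample, Restored and Non-Restored cells cannot be told apart, barcodes shared between libraries could not be counted, and no p-value is given. The labels give no age.

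Plasmacytoid dendritic cells are immune cells of the dendritic lineage that patrol blood and lymphoid tissue and sample nucleic acids in their endosomes with the receptors TLR7 and TLR9. On sensing viral RNA or DNA they can secrete large amounts of type I interferon, for which they keep an extensive secretory apparatus, and they are poorer at presenting antigen than conventional dendritic cells. Their identity is held by the E-protein TCF4 (E2-2) together with SPIB, RUNX2, BCL11A and IRF8, while ID2, which blocks E-proteins, marks the conventional dendritic fate.

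The plasmacytoid dendritic cells held 498485 UMIs in all, with a median of 2956 UMIs (1343 to 16687 from the shallowest to the deepest cell) and 1258 detected genes. They were set against 156 dendritic cells (24 type 1, 86 type 2 and 46 mature cells, median 3762 UMIs), 326 monocytes (155 classical and 171 non-classical, median 2719.5 UMIs) and all 19750 other filtered cells. The first 2 of these groups were gated on markers of their own (Xcr1, Clec9a, Cd209a, Clec10a, Fscn1, Ccl22 and Cacnb3 with H2-Aa for dendritic cells, Lyz2 and Csf1r with classical or non-classical markers for monocytes) and on the absence of Siglech and Epcam, so those genes are no finding. The median mitochondrial share was 6.13% in the plasmacytoid cells, 3.71% in dendritic cells and 3.23% in monocytes, and its part in the comparisons was not tested. Levels are given in CPM, the UMIs of a gene divided by all UMIs of the group and multiplied by 1000000, each UMI standing for 1 captured transcript whatever its length.

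The choosing genes are given as a description. Siglech, a sialic acid-binding receptor that signals through DAP12, ranged from 3 to 24 UMIs a cell with a median of 7 and reached 2281 CPM (2150.2 to 2417). Siglech was concentrated in these cells, which held 87.6% of its UMIs among filtered cells. Tcf4 was detected in 140 of 142 cells at 1543 CPM (1436 to 1656), against 265 CPM in dendritic cells and 108 CPM in monocytes. The chemokine receptor gene Ccr9 was detected in 81 cells at 287 CPM (242 to 338). Cox6a2, a subunit of cytochrome c oxidase otherwise known from heart and skeletal muscle, was detected in 89 cells at 831 CPM (752 to 915).

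Few cells lay at the margins of the rule. Before the filter 160 cells had at least 3 Siglech UMIs, 6 of them failed the filter, 0 lacked the other choosing genes, and 12 fell to the limits on C1q, Cd3 and Cd79a (4 to each). The 13 cells just inside the Siglech limit, with exactly 3 UMIs, had Bst2 at 2542 CPM, Irf8 at 1928 CPM and Klk1 at 810.1 CPM. The 12 cells just outside, with 2 Siglech UMIs and every other term met, had the same genes at 2516, 1609 and 673 CPM. Cells with 1 Siglech UMI that met the other terms (26 cells) had Bst2 at 1370.2 CPM and Klk1 at 50.01 CPM. The count of 142 is thus a count of cells deep enough and high enough in Siglech to pass, not of every such cell in the tumors.

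**Figure D1:**
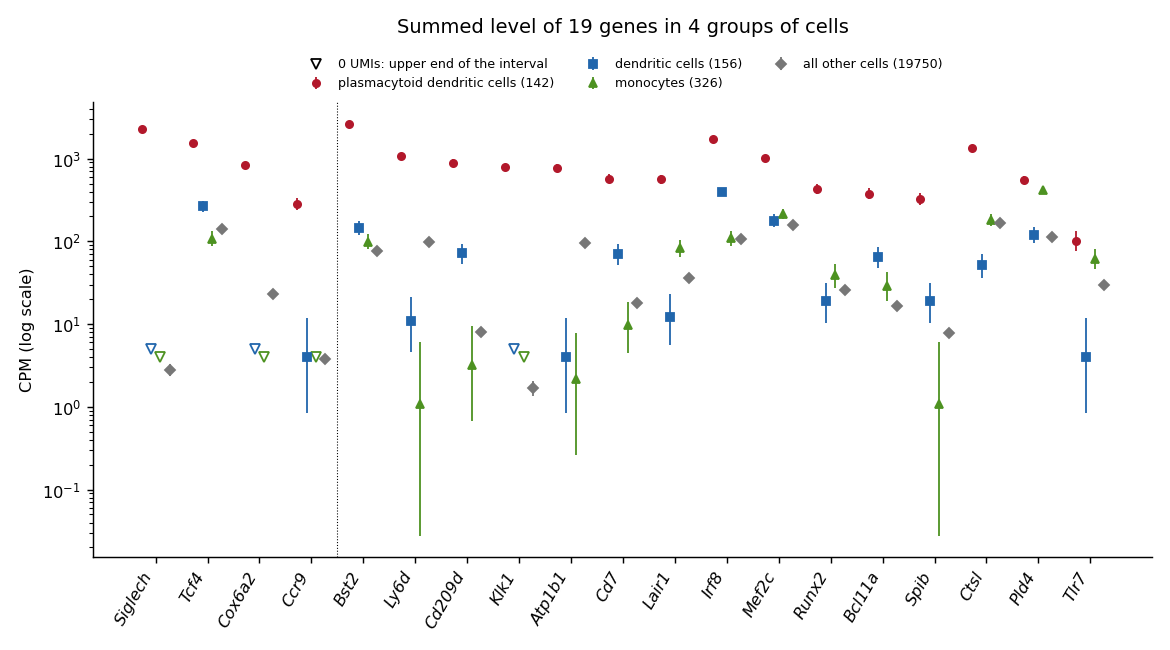
Summed level in CPM of each group (log axis) of the 4 choosing genes (left of the dotted line) and 15 further genes in plasmacytoid dendritic cells, dendritic cells, monocytes and all other cells. Points are group sums and bars 95% Poisson intervals, and open triangles mark the upper end of the interval where a group had 0 UMIs. Each of the 15 further genes was higher in plasmacytoid dendritic cells than in the other groups, from Bst2 at 2596 to Tlr7 at 102 CPM, with Pld4 and Tlr7 close to monocytes.

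The label was set beside 20 genes known from plasmacytoid dendritic cells that the choice did not use. This list was drawn up with earlier results of these data known, so it is no independent check of the label. Beside the counts of a list, the background is the share of all tested genes (at least 50 CPM in either group and 20 UMIs in both together) past the same 4-fold limit, computed with 10 CPM added to each level. Against all other cells, 18 of the 20 identity genes were at least 4-fold higher and the 2 others, Lag3 and Grm8, were under the minimum level, where 3.74% of 3396 tested genes were that much higher and 5.59% that much lower. Against dendritic cells 18 were at least 4-fold higher (background 4.75% of 3302 genes), and against monocytes 16 were (background 5.72% of 3410 genes). The corresponding backgrounds for genes at least 4-fold lower were 3.97% and 4.28%. The median log2 ratio over all tested genes was 0.12 against dendritic cells and 0.01 against monocytes, so the groups were centred alike. A gene that passes the minimum through its level in the chosen cells had to differ, and the counts are given for what the cells contain rather than as a test.

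Bst2, which encodes the antiviral tether tetherin (the PDCA-1 antigen used to sort these cells), was found in every one of the 142 cells, from 1 to 36 UMIs a cell with a median of 9. Its level was 2596 CPM (2456 to 2741) against 146 CPM in dendritic cells, 99.7 CPM in monocytes and 76.1 CPM in all other cells, 17.8-fold (14.6 to 21.9) higher than in dendritic cells. Ly6d, a surface protein of lymphoid-primed progenitors, reached 1067 CPM (978 to 1162) in 98 cells against 10.8 CPM in dendritic cells, 1.08 CPM in monocytes and 97.7 CPM in all other cells. The C-type lectin gene Cd209d stood at 891 CPM (809.8 to 978) against 71.6 CPM in dendritic cells and 3.25 CPM in monocytes, and the plasmacytoid cells held 49.1% of its UMIs. Cd209a, of the same gene family, was at 102 CPM (76.2 to 135) (its level in dendritic cells was set by their gate), and such close copies can share reads. Atp1b1, a subunit of the sodium pump, was at 774 CPM (699 to 856) against 4.05 CPM in dendritic cells and 2.17 CPM in monocytes. Lair1, an inhibitory collagen receptor, was at 564 CPM (499.7 to 634) against 12.2 CPM in dendritic cells and 82.3 CPM in monocytes. Plac8 and Clec12a were shared with monocytes, at 3025 and 405 CPM against 2449 and 152 CPM.

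The tissue kallikrein gene Klk1 was among the most restricted of these genes. It was found in 101 of them, from 0 to 14 UMIs a cell with a median of 2, at 786 CPM (710.5 to 868). Neither dendritic cells nor monocytes had a single Klk1 UMI, which makes the level at least 194-fold and at least 242-fold higher when 3 UMIs over the group are taken as the limit that a count of 0 allows. The plasmacytoid cells made up 0.714% of cells and held 80.3% (76.5 to 83.8) of all Klk1 UMIs. Its neighbor in the kallikrein cluster, Klk1b27, followed the same pattern at 279 CPM (234 to 329) in 76 cells with no UMI in either group. The counts of these closely related genes are uncertain where they share reads.

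Siglech, Ccr9 and Klk1 are shown by the stretch of 250 bases before their RefSeq start (GRCm38.p6, the assembly behind mm10), the first pair as choosing genes with an entry in the RefSeq promoter table and Klk1 as an identity gene with no UMI in dendritic cells or monocytes. TCF4 binds E-boxes and SPIB Ets sites, so both motifs were searched. Cox6a2 and Ly6d are named only. Capitals mark the E-box CAGGTG or its reverse complement CACCTG, and the Ets core GAGGAA or TTCCTC, of which these stretches held none. They lie on the plus strand at chr7:55767934-55768183, chr9:123766961-123767210 and chr7:44225110-44225359.
Siglech: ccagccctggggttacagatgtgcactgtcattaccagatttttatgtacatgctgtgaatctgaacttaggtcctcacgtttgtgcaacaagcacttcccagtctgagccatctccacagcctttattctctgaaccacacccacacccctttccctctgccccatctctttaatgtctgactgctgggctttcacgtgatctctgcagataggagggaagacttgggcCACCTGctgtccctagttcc
Ccr9: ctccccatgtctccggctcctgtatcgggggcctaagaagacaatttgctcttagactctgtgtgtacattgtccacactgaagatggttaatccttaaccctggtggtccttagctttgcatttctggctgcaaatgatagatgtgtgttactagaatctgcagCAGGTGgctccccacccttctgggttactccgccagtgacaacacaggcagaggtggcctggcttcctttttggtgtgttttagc
Klk1: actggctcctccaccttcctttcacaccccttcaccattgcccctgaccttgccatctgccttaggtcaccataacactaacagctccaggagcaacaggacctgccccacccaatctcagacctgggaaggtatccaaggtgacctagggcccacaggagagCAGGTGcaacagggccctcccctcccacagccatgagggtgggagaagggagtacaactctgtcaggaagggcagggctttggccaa

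The E-box began 20 bases before the start of Siglech, 85 before that of Ccr9 and 87 before that of Klk1. In the full table entries, which run from 250 bases before the start to 50 after it, 20.2% of 32851 promoters held the E-box and 28.3% held the Ets core on either strand. Of the identity genes outside the rule, 16 of 20 had an entry, with 21 promoters, of which 5 (23.8%) held the E-box and 9 (42.9%) the Ets core. These matches describe letters in a window and no binding was measured. In GENCODE vM21 on mm10, Siglech spans chromosome 7 from 55768178 to 55778925, Klk1 chromosome 7 from 44225360 to 44229618 and Cox6a2 chromosome 7 from 128205435 to 128206387.

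The transcription factors of the plasmacytoid program were high together. Of 17 factors of the dendritic lineage, 5 were at least 4-fold higher than in dendritic cells and 2 at least 4-fold lower, with a median log2 ratio of 0.44 among the 15 tested. The higher ones were Spib, Irf8, Runx2, Bcl11a and Mef2c. Spib, an Ets factor, was at 327 CPM (279 to 381) against 18.9 CPM in dendritic cells and 1.08 CPM in monocytes. Irf8 was found in 140 cells, from 0 to 17 UMIs a cell with a median of 6, at 1737 CPM (1623 to 1857). Type 1 dendritic cells, which also depend on IRF8, came nearest for Irf8 with 1073 CPM (917 to 1248), while the dendritic cells as a whole had 393 CPM. Runx2 was at 433 CPM (377 to 495) against 18.9 CPM in dendritic cells and 39.0 CPM in monocytes, and Bcl11a at 379 CPM (327 to 437) against 64.9 CPM in dendritic cells and 29.2 CPM in monocytes. Mef2c stood at 1019 CPM (932 to 1112) against 178 CPM in dendritic cells and 213 CPM in monocytes.

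The factors of the conventional dendritic branch were low. Id2 had 31 UMIs in 16 of the plasmacytoid cells, 62.2 CPM (42.3 to 88.3), and was 9.21-fold (6.39 to 13.7) lower than in dendritic cells. Batf3, required for type 1 dendritic cells, had 1 UMI against 107 CPM in dendritic cells, and Zbtb46 had none against 10.8 CPM. Against monocytes, Klf4, Nfil3 and Id3 were at least 4-fold lower, Klf4 at 106 against 582 CPM. The growth factor receptor Flt3, used by both dendritic branches, was at 102 CPM (76.2 to 135) in plasmacytoid and 101 CPM (79.7 to 127) in dendritic cells, a ratio of 1.01-fold (0.693 to 1.46). Zeb2, which favors the plasmacytoid over the type 1 dendritic fate, was 2.15-fold (1.68 to 2.77) higher than in dendritic cells, below the 4-fold limit, at 323 CPM.

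**Figure D2:**
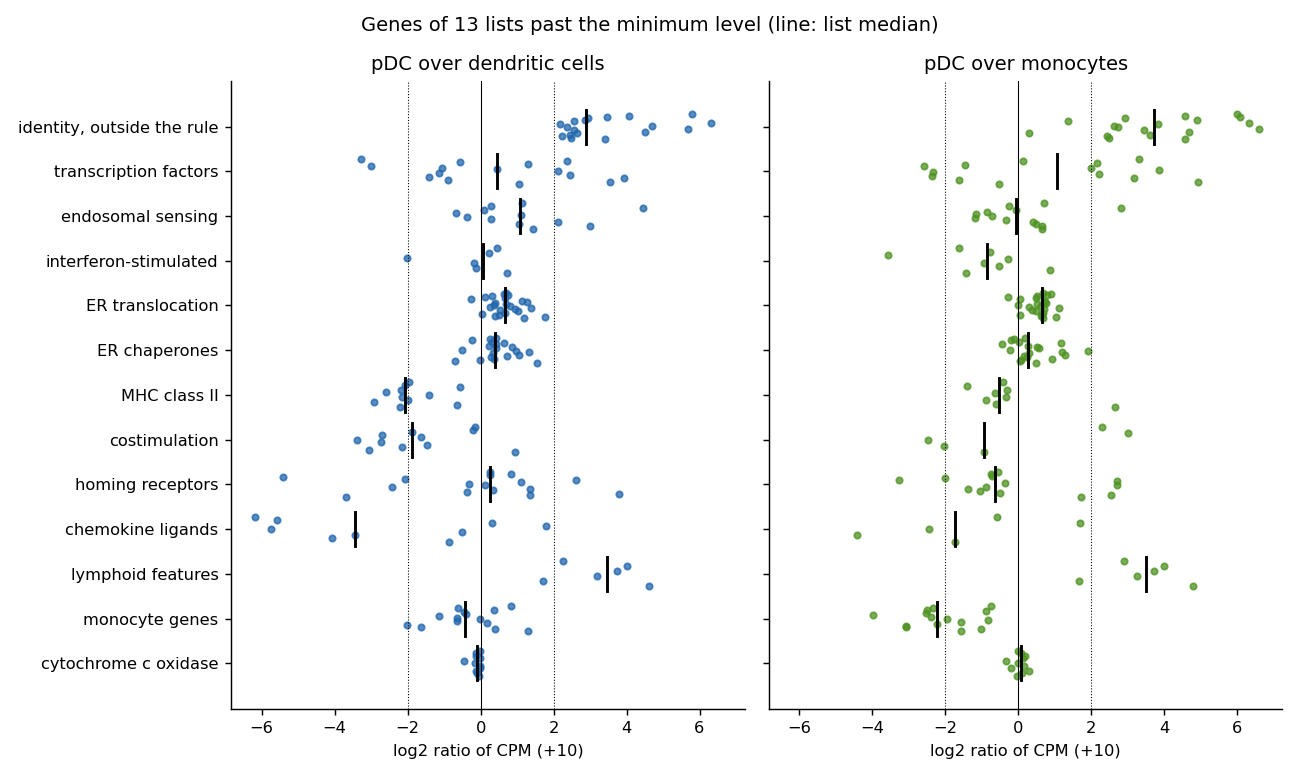
Log2 ratio of CPM, with 10 added, of plasmacytoid dendritic cells over dendritic cells (left) and over monocytes (right) for the genes of 13 lists that passed the minimum level. Each point is a gene, black bars are list medians and dotted lines mark 4-fold. Identity genes (medians 2.90 and 3.72) and lymphoid features lay to the right, MHC class II genes were lower mainly against dendritic cells (medians -2.07 and -0.51), and cytochrome c oxidase subunits sat near 0 in both panels.

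Genes of endosomal nucleic acid sensing were higher as a sum than in dendritic cells, 3097 CPM (2945 to 3256) against 939 CPM, a log2 ratio of 1.72 (1.59 to 1.85), and 0.72 (0.62 to 0.82) against monocytes at 1876 CPM. Of the 17 genes, 12 were tested against dendritic cells and 13 against monocytes, and 3 (Tlr7, Pld4 and Ctsl) were at least 4-fold higher than in dendritic cells and 1 (Ctsl) than in monocytes, and 0 were that much lower than in either. The median log2 ratio over the genes tested was 1.08 and -0.05, of the opposite sign to the sum against monocytes. The sum was dominated by Ctsl, the lysosomal protease cathepsin L, at 1338 CPM (1238 to 1444) against 51.3 CPM in dendritic cells and 182 CPM in monocytes. Tlr7, the receptor for single-stranded RNA, had 51 UMIs in 42 cells, 102 CPM (76.2 to 135), which was 25.2-fold (8.16 to 126) higher than in dendritic cells and 1.66-fold (1.11 to 2.46) higher than in monocytes. The endosomal nuclease Pld4 was at 552 CPM (488 to 621) against 120.2 CPM in dendritic cells and 414 CPM in monocytes, and Unc93b1, which carries the receptors to endosomes, at 409 CPM (355 to 469) against 146 CPM in dendritic cells and 255 CPM in monocytes. Tlr9, the receptor for CpG DNA, had 0 UMIs, which allows up to 6.02 CPM (3 UMIs). Tlr9 had 28 UMIs in all filtered cells together, and a level below that limit was not detectable at this depth. The adaptor genes Myd88, Irak1 and Traf6 were at 72.2, 56.2 and 32.1 CPM, and their intervals took in the levels of dendritic cells at 58.1, 52.7 and 39.2 CPM.

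Interferon output was not detectable. None of the 15 interferon alpha, beta and lambda genes of the list had a UMI in these cells or in any filtered cell. By counting alone this allows up to 6.02 CPM for each in the plasmacytoid cells. The interferon alpha genes can share reads, and the part of such reads in the counts of 0 was not tested. Irf7, the factor that amplifies interferon transcription, had 46 UMIs in 32 cells, 92.3 CPM (67.6 to 123), above dendritic cells at 37.8 CPM and below monocytes at 157 CPM (133 to 185). Interferon-stimulated genes summed to 1563 CPM (1455 to 1676) against 2606 CPM in dendritic cells and 7919 CPM in monocytes, log2 ratios of -0.74 (-0.86 to -0.62) and -2.34 (-2.45 to -2.23). The pair of genes with most of these UMIs went in both directions. Ifitm3 was at 407 CPM (353 to 467) in 29 cells against 1669 CPM in dendritic cells and 4908 CPM in monocytes, with 34.0% of its UMIs in 15 cells rich in neutrophil transcripts that are described at the end, and Ifi27l2a at 778 CPM (703 to 859.8) against 566 CPM in dendritic cells and 2422 CPM in monocytes. The classical early genes were near the limit of detection, with 16 UMIs of Isg15, 1 of Ifit1, 2 of Ifit3 and 3 of Rsad2 in the 142 cells. The median log2 ratio over the 6 tested genes was 0.05, of the opposite sign to the sum.

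Both chains of the type I interferon receptor were higher than in the comparison groups. Ifnar1 was at 213 CPM (174 to 257) against 85.1 CPM in dendritic cells and 105 CPM in monocytes, and Ifnar2 at 281 CPM (236 to 331) against 89.2 CPM in dendritic cells and 113 CPM in monocytes, 3.15-fold (2.33 to 4.29) and 2.49-fold (1.92 to 3.24) higher. Neither reached 4-fold against these groups. Ifngr1, a chain of the interferon gamma receptor, went the other way at 106 CPM (79.6 to 139) against 212 CPM in dendritic cells and 560.0 CPM in monocytes. Among cytokines, Il12a, the p35 chain of IL-12, had 23 UMIs in 19 cells, 46.1 CPM (29.2 to 69.2), with none in dendritic cells (at least 11.4-fold higher) and 1 in monocytes. Il12b, the p40 chain, showed the mirror image with none in plasmacytoid cells and 97.3 CPM in dendritic cells. Il12a stayed under the minimum level for a call, and of other pathogen sensors none of the 4 genes tested against dendritic cells and 5 against monocytes was past 4-fold, while 4 of 14 matched genes, Tlr1, Tlr3, Tlr5 and Ddx58, had no UMI.

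The secretory apparatus was higher in a graded, broad way. The 24 genes of ER translocation and glycosylation summed to 7569 CPM (7329 to 7814) against 4826 CPM in dendritic cells, 5009 CPM in monocytes and 4363 CPM in all other cells. The log2 ratio of the sums was 0.65 (0.58 to 0.72) to dendritic cells and 0.60 (0.53 to 0.66) to monocytes. No gene of the list reached 4-fold in either direction, 23 of 24 lay above dendritic cells, and the intervals of 19 of them did not take in equal levels. The median log2 ratio of the genes was 0.67 and 0.64, beside 0.12 and 0.01 over all tested genes. Sec61g, a channel subunit, was at 1701 CPM (1589 to 1819.6) against 1051 CPM in dendritic cells and 1187 CPM in monocytes, and the signal peptidase subunit Spcs2 at 425 CPM (370.0 to 487) against 157 CPM in dendritic cells and 192 CPM in monocytes. ER chaperones and the unfolded protein response followed less evenly, with a log2 ratio of sums of 0.60 (0.51 to 0.68) to dendritic cells. Of its 26 genes, 20 were tested against each of the 2 groups and none was past 4-fold in either direction. Hsp90b1, the chaperone (gp96) that folds Toll-like receptors, was at 879 CPM (798 to 965) against 343 CPM in dendritic cells and 375 CPM in monocytes, and Xbp1, the factor that drives the secretory program, was 3.10-fold (2.35 to 4.12) higher than in dendritic cells at 327 CPM. Calr and Pdia6 did not follow, at 263 and 162 CPM against 313 and 163 CPM. Mzb1, an ER protein of plasma cells, was at 183 CPM (147 to 224) in 60 cells against 2.70 CPM in dendritic cells. The 4 plasma cell markers, Mzb1 included, summed to 213 CPM against 6.76 CPM in dendritic cells, with Jchain at 20.1 CPM and Tnfrsf17 at 0 UMIs.

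Antigen presentation was lower than in dendritic cells and nearer to monocytes. The 11 matched MHC class II genes summed to 8287 CPM (8036 to 8544) against 37183 CPM in dendritic cells and 11894 CPM in monocytes, log2 ratios of -2.17 (-2.21 to -2.12) and -0.52 (-0.57 to -0.47). H2-Aa was part of the dendritic gate. With H2-Aa left out of the sum, the log2 ratio to dendritic cells was -2.16 (-2.21 to -2.11). The dendritic cells in that ratio were still chosen by H2-Aa, so it cannot show what the gate did to the other class II genes. Of the 11 genes, all tested against dendritic cells with a median log2 ratio of -2.07, 6 were at least 4-fold lower in plasmacytoid cells (H2-Aa, H2-Ab1, H2-Eb1, H2-DMb1, H2-Ob and Ciita). The transactivator Ciita was at 36.1 CPM (21.4 to 57.1) against 184 CPM. The invariant chain gene Cd74 ranged from 0 to 152 UMIs a cell with a median of 13 and was 3.91-fold (3.73 to 4.10) lower than in dendritic cells. H2-Oa, which restrains peptide loading, was at 60.2 CPM (40.6 to 85.9), 1.66-fold (1.07 to 2.63) lower than in dendritic cells and against 1.08 CPM in monocytes, and was the 1 gene of the list at least 4-fold higher than in monocytes. Class I genes differed little, with a log2 ratio of sums of -0.25 (-0.33 to -0.18), and H2-K1 at 1025 CPM (938 to 1118) against 1197 CPM.

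Genes of costimulation were lower than in dendritic cells. Of 17 costimulation and checkpoint genes, 11 were tested with a median log2 ratio of -1.89, 5 were at least 4-fold lower than in dendritic cells (Cd86, Cd40, Cd83, Icosl and Tnfsf9) and 0 higher. Cd86 had 10 UMIs in 9 cells, 20.1 CPM (9.62 to 36.9) against 191 CPM in dendritic cells and 113 CPM in monocytes, and Cd83 was at 40.1 CPM (24.5 to 62.0) against 517 CPM in dendritic cells and 268 CPM in monocytes. Cd274, which encodes PD-L1, was at 16.0 CPM (6.93 to 31.6) against 86.5 CPM in dendritic cells. Ido1, Gzmb and Tnfsf10, all reported from tolerogenic or cytotoxic plasmacytoid cells, had 1, 1 and 2 UMIs. Lag3 had 18 UMIs in 17 cells, 36.1 CPM (21.4 to 57.1), and the coinhibitory receptors Btla and Cd200 were at 66.2 and 106 CPM, at least 4-fold above monocytes.

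Single genes of migration lay above and below the comparison groups. Cxcr3, the receptor for interferon-induced chemokines, was at 84.3 CPM (60.7 to 114) in 34 cells against 5.40 CPM in dendritic cells and 4.33 CPM in monocytes, 15.6-fold (5.66 to 59.9) and 19.4-fold (7.06 to 74.7) higher. Ccr7, the receptor of migrating mature dendritic cells, had 1 UMI against 499 CPM, and Cx3cr1, a receptor of non-classical monocytes, was at 26.1 CPM (13.9 to 44.6) against 339 CPM in monocytes. Ccr2 was intermediate at 453 CPM (396 to 516) against 253 CPM in dendritic cells and 769 CPM in monocytes. Of the 10 chemokine ligands, 9 were tested against dendritic cells with a median log2 ratio of -3.44 and 5 were at least 4-fold lower than in dendritic cells (Ccl5, Ccl9, Ccl17, Ccl22 and Cxcl16), of which Ccl22 was part of the gate of mature dendritic cells. Ccl4 was the highest of the list at 1615 CPM (1505 to 1730.4) against 459 CPM in dendritic cells and 489 CPM in monocytes, and it ranged from 0 to 53 UMIs a cell with a median of 2.

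A lymphoid set of transcripts set these cells apart from both myeloid groups. Of 12 lymphoid genes, 5 were at least 4-fold higher than in dendritic cells and 5 than in monocytes (Dntt, Iglc3, Ighm, Cd8a and Cd8b1 in both), with median log2 ratios of 3.46 and 3.49 over the 6 tested. Dntt, the terminal transferase of rearranging lymphocytes, had 61 UMIs in 45 cells, 122 CPM (93.6 to 157), with none in either group, at least 30.2-fold and at least 37.7-fold higher. The plasmacytoid cells held 87.1% (77.0 to 93.9) of all Dntt UMIs in filtered cells, while Rag1 and Rag2 had none. Iglc3 and Ighm, immunoglobulin constant chains, were at 269 CPM (225 to 318) and 616 CPM (549 to 689) against 1.35 and 58.1 CPM in dendritic cells. Over all other cells Iglc3 was at 15.9 CPM. Igkc was at 128 CPM (98.9 to 164) in the plasmacytoid cells and 2306 CPM over all other cells. The source of these immunoglobulin transcripts was not tested. Cd8b1 was at 150.5 CPM (118 to 189) in 29 cells and Cd8a at 64.2 CPM (43.9 to 90.6) in 20. The rule kept out any cell with a Cd3 UMI. The 6 T cell markers summed to 24.1 CPM, which the rule held down because Cd3d, Cd3e and Cd3g are among them. The source of the Cd8 transcripts was not tested. B cell markers, of which the rule limited Cd79a, were close to 0 (Fcmr at 0 UMIs, Ms4a1 at 4 UMIs in 1 cell).

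Signaling genes included an adaptor of B cells beside the DAP12 adaptor of myeloid cells. Of 13 adaptor and signaling genes, 12 were tested against each group. Against dendritic cells 1 was at least 4-fold higher, against monocytes 3 were, and 0 were that much lower than in either. The log2 ratio of the sums was 1.30 (1.22 to 1.37) to dendritic cells and -0.12 (-0.18 to -0.07) to monocytes, so the list as a whole was level with monocytes. Tyrobp, which encodes the DAP12 adaptor of Siglech, was found in every cell, from 4 to 49 UMIs a cell with a median of 15, at 4756 CPM (4567 to 4952) against 1413 CPM in dendritic cells and 4078 CPM in monocytes. Blnk, an adaptor of the B cell receptor, was at 307 CPM (260.2 to 359.6) against 12.2 CPM in dendritic cells and 0 UMIs in monocytes (at least 94.5-fold higher). Fyn, a kinase of the Src family, was at 403 CPM (349 to 463) against 122 CPM in dendritic cells and 78.0 CPM in monocytes. Il7r was at 349 CPM (299 to 405) against 94.6 CPM in dendritic cells and 3.25 CPM in monocytes, and Csf2rb2, the mouse beta chain for IL-3, at 185 CPM (149 to 226) against 52.7 CPM in dendritic cells and 16.2 CPM in monocytes. Of 13 cytokine and growth factor receptors, 0 were past 4-fold against dendritic cells and 3 (Csf2rb2, Il7r and Il21r) were at least 4-fold higher than in monocytes. The 1 at least 4-fold lower than in monocytes was Csf1r, a gate gene of monocytes, at 86.3 CPM.

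Cox6a2, a choosing gene, was set beside 15 other genes of cytochrome c oxidase. None of the 11 tested reached 4-fold against any group, and Cox6a1, the ubiquitous form, was at 339 CPM (289.8 to 394) against 342 CPM in dendritic cells and 307 CPM in monocytes. The muscle forms Cox7a1 and Cox8b had no UMI. Counted against each other as captured transcripts, Cox6a2 made up 71.0% (67.1 to 74.7) of the 583 Cox6a1 and Cox6a2 UMIs in plasmacytoid cells, 0 of 253 in dendritic cells and 0 of 283 in monocytes. The gene was also found elsewhere. A further 131 cells outside had at least 3 Cox6a2 UMIs, and these carried a median of 903 UMIs of the surfactant genes Sftpc, Sftpa1 and Sftpb summed, against a median of 0 in the plasmacytoid cells. Other genes known from striated muscle appeared among the unlisted genes with the largest ratios. Atp2a1, the calcium pump of fast muscle, was at 132 CPM (102 to 168) and Sh3bgr, a gene prominent in heart and skeletal muscle, at 195 CPM (158 to 237), both with 0 UMIs in dendritic cells and monocytes, and the plasmacytoid cells held 78.6% and 62.2% of their UMIs.

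Outside the lists and gates, the 15 genes with the largest ratio to all other cells were Klk1b27, Sh3bgr, Rnase6, Lefty1, Atp2a1, Mctp2, Fcrla, Lrp8, Tmem229b, Paqr5, St8sia4, Tubgcp5, Gm5547, Pir and Robo3, at 98.3 to 889 CPM. Rnase6, an antimicrobial ribonuclease, was at 766 CPM (691 to 847) against 37.9 CPM in all other cells. Fcrla, an Fc receptor-like protein of B cells, was at 313 CPM (266 to 366) against 14.8 CPM. Lefty1, a secreted antagonist of Nodal signaling, was at 167 CPM (133 to 206) with 40.3% of its UMIs in these cells. St8sia4, a polysialyltransferase, was at 889 CPM (808 to 975) against 179.7 CPM in dendritic cells and 113 CPM in monocytes. Against dendritic cells the 10 highest added Prkca, Ptprcap and Sla2, with Prkca at 443 CPM (387 to 506) against 6.76 CPM in dendritic cells and 3.25 CPM in monocytes. Against monocytes P2ry14, Gpr171 and Sdc4 joined, P2ry14 at 437 against 4.33 CPM.

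The genes lowest against dendritic cells were Mt1, Mt2, AW112010, H2-M2, Tmem176a, Zmynd15, Fabp5, Tmem176b, Tbc1d4 and Mfge8. The metallothionein gene Mt1, which buffers zinc and copper, was at 38.1 CPM (22.9 to 59.5) against 1428 CPM in dendritic cells, 518 CPM in monocytes and 1767 CPM in all other cells. Mt2 had no UMI against 205 CPM in dendritic cells, at least 34.1-fold lower. The 10 lowest against monocytes were Gm9733, Thbs1, Mt1, Smpdl3a, Ms4a6b, Gm1673, Igsf6, Agpat4, Clec4a3 and Ifitm6, with Ifitm6 at 84.3 against 854 CPM. Of 16 monocyte genes that the gates did not use, 8 were at least 4-fold lower than in monocytes and 0 higher. Ly6c2, used in the classical monocyte gate, was nonetheless higher in plasmacytoid cells, 1338 CPM (1238 to 1444) against 966 CPM (881 to 1057) in classical monocytes. Of 14 conventional dendritic genes, 5 were at least 4-fold lower and 2 (Cadm1 and Epcam) higher, Epcam being a gate gene. Of 10 genes linked to transitional dendritic cells, 1 (Ly6c2) was at least 4-fold higher than in dendritic cells and 2 (Crip1 and Vim) lower, with Axl at 0 UMIs and Cx3cr1 at 26.1 CPM.

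Cell cycle genes summed to 529.6 CPM (468 to 597) against 2373 CPM in dendritic cells and 1187 CPM in monocytes, with UMIs of at least 1 of the 15 genes in 114 cells and of 2 or more in 42. H2afz and Tubb5, which resting cells also express, held 187 and 57 of these 264 UMIs. Of 5 tested against dendritic cells 4 were at least 4-fold lower (Mki67, Top2a, Stmn1 and H2afz). Of the 15 genes 7 had no UMI, Top2a among them, and Mki67 and Birc5 had 1 each. Stk11, the gene of LKB1, had 16 UMIs in 15 cells, 32.1 CPM (18.3 to 52.1), against 31.1 CPM in dendritic cells and 31.4 CPM in monocytes. The Cre reporter tdTomato was at 193 CPM (156 to 235) in 64 cells against 145 and 155 CPM in dendritic cells and monocytes and 1139 CPM in all other cells. GFP, the tag inside the gene trap, had no UMI.

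Detection was also compared at equal depth. Each cell was thinned to 1000 UMIs, which left out none of the plasmacytoid and dendritic cells and 4 monocytes. Bst2 was then found in 92.3% (86.6 to 96.1) of plasmacytoid cells, 10.9% (6.48 to 16.9) of dendritic cells and 8.39% (5.60 to 11.97) of monocytes, against 100%, 39.7% and 19.3% without thinning. Klk1 fell from 71.1% of plasmacytoid cells to 43.0% (34.7 to 51.5) and was found in 0% (0 to 2.34) of dendritic cells and 0% (0 to 1.14) of monocytes. Tlr7 reached 8.45% (4.44 to 14.3), which overlapped the 4.35% (2.40 to 7.19) of monocytes, and Irf7 5.63% (2.46 to 10.8), below the 15.2% (11.5 to 19.6) of monocytes. Dntt and Cd8b1 were each found in 11.97% (7.13 to 18.5). The share of cells with a UMI of a gene thus depended on depth, and it is not the share of cells that express it.

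**Figure D3:**
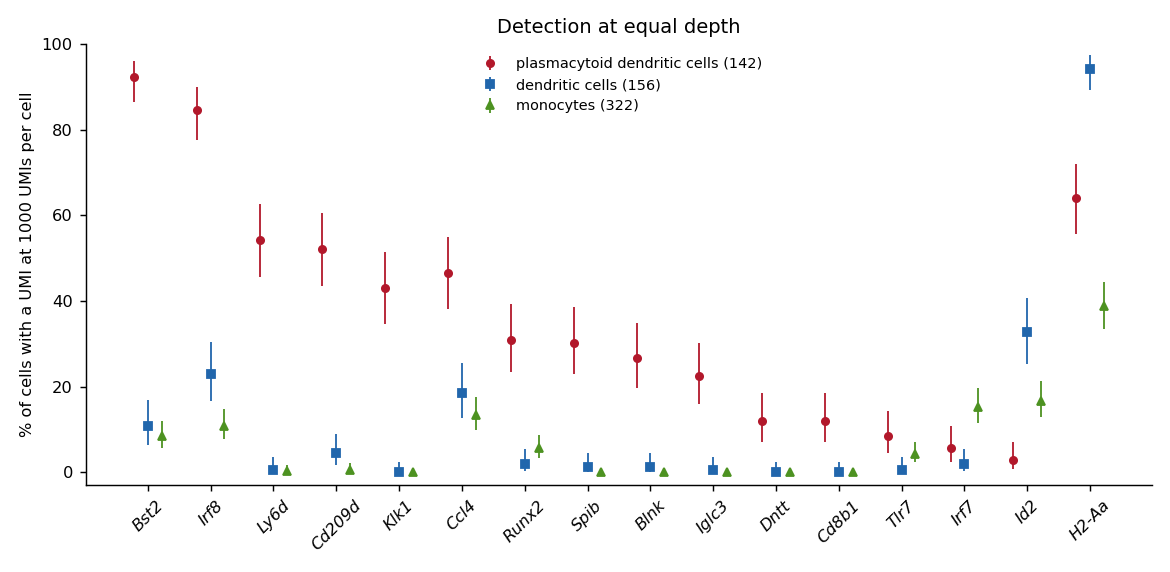
Percent of cells with at least 1 UMI of 16 genes after every cell was thinned to 1000 UMIs, in plasmacytoid dendritic cells, dendritic cells and monocytes. Bars are exact binomial 95% intervals. Bst2 was found in 92.3% of plasmacytoid cells and Id2 in 2.82%, and H2-Aa, on which dendritic cells were gated, was highest in dendritic cells.

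The plasmacytoid cells were not uniform. The spread of UMIs between cells was set against the spread that sampling alone would give at each cell's depth, where a ratio of 1 means sampling. Tlr7 and Pacsin1 lay at 1.15 and 1.15. Ccl4 lay at 18.1, and Ly6d, Klk1 and Ly6c2 at 5.42, 5.40 and 5.24, with Cox6a2 at 4.30 and Cd209d at 3.69. Across the 142 cells, log2 levels of Ly6a and Ly6c2 went together (Pearson r = 0.43, and 0.27 at equal depth), and Ly6d and Cd209d went against each other (r = -0.30, and -0.28 at equal depth). These are descriptions over cells that share the pool, their depth and an unknown mix of mice, and closely related Ly6 genes can share reads.

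Cells with Ly6a, an interferon- and progenitor-linked surface protein (Sca-1), differed in level from those without it in several of these genes. Among the 127 plasmacytoid cells with fewer than 5 UMIs of the neutrophil genes S100a8 and S100a9, 37 had a Ly6a UMI and 90 had none. Ly6c2 was at 2140.1 CPM (1911 to 2389) in cells with Ly6a and 1048 CPM (928 to 1178) in cells without. Klk1 showed the reverse, 459 CPM (356 to 582) against 1089 CPM (967 to 1222), as did Cox6a2 at 628 against 1010.1 CPM, Cd209d at 608 against 1183 CPM and Ccl4 at 756 against 2062 CPM. The general identity genes were lower too in cells with Ly6a, Siglech at 1924 CPM (1707 to 2161) against 2617 CPM (2427 to 2819) and Bst2 at 2201 against 3083 CPM. Ly6d was at 1100.4 CPM (938 to 1283) and 1138 CPM (1013 to 1273). These intervals cover counting error only, and the spread between cells was wider than sampling for Ly6c2, Klk1, Cox6a2, Cd209d, Ccl4 and Ly6d. Whether any of these levels differed beyond the spread between cells was not tested. The median depth was 3265 UMIs in cells with Ly6a and 2748 in cells without, and which mice the cells came from is not known. The split was chosen after the values were seen and is given as a description.

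**Figure D4:**
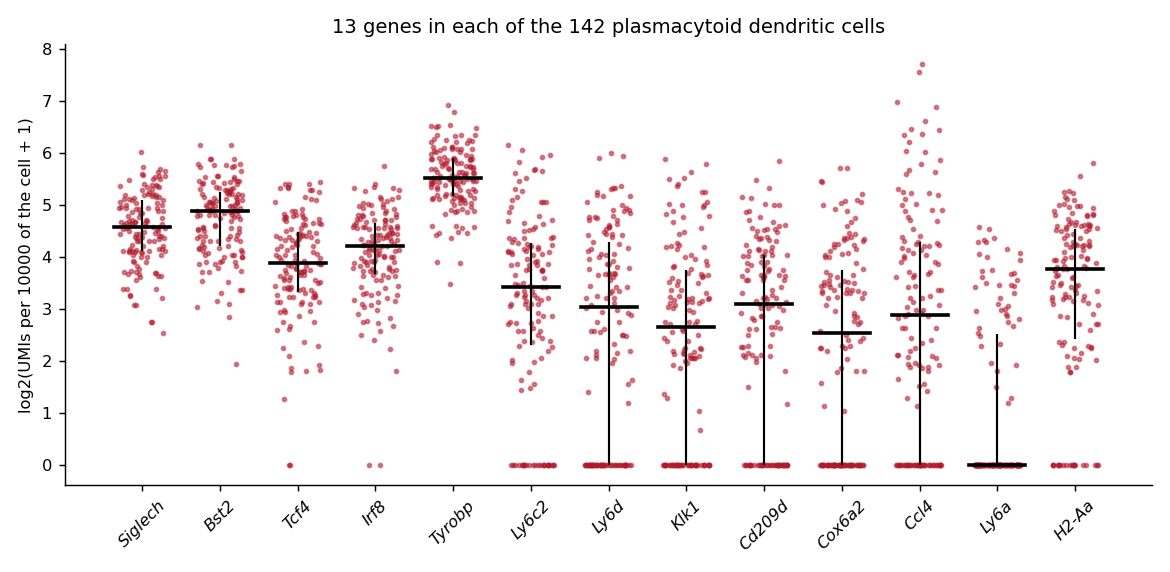
Level of 13 genes in each of the 142 plasmacytoid dendritic cells as log2 of UMIs per 10000 UMIs of the cell plus 1. Each point is a cell, horizontal bars are medians and vertical lines the middle 50% of cells. Siglech, Bst2 and Tyrobp formed 1 band, whereas Ly6d, Klk1, Cd209d, Cox6a2, Ccl4 and Ly6a had a row of cells at 0 beside cells at high levels.

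Transcripts of other cell types were present in a minority of cells. S100a8 and S100a9, abundant calcium-binding proteins of neutrophils, were at 0 UMIs in 113 cells, at 1 to 4 UMIs in 14 and at 35 to 563 UMIs in 15, with no cell between. Those 15 cells held 99.1% of the S100a8 and S100a9 UMIs, 99.3% of Retnlg, 98.7% of Csf3r and 64.3% of Il1b. Their median depth was 4735 UMIs against 2807. Genes of the plasmacytoid program that the rule did not use were present at lower levels, with Bst2 at 1749 CPM against 2768 CPM in the other cells, and Klk1 and Cd209d at 404 and 464 CPM against 786 and 891 CPM over all 142 cells. Il1b was at 3557 CPM in these cells against 401 CPM in the others, Cxcl2 at 845 against 159 CPM, and the immediate early gene Dusp1 at 1523 against 198 CPM. All 5 neutrophil markers (S100a8, S100a9, Retnlg, Cxcr2 and Csf3r) had UMIs, their sum ran from 0 to 585 UMIs a cell with a median of 0, and it came to 6227 CPM against 1613 CPM in dendritic cells, 2299 CPM in monocytes (gated on low Retnlg and Cxcr2) and 6416 CPM in all other cells. A doublet caller marked none of the plasmacytoid cells, but it marked only 0.945% of all filtered cells where 6% was the expected rate. Whether the 15 cells were doublets, and the part of neutrophil RNA in these levels, was not tested. Without these 15 cells the identity sum was 13298 in place of 12618 CPM and the interferon-stimulated sum 1472 in place of 1563 CPM.

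**Figure D5:**
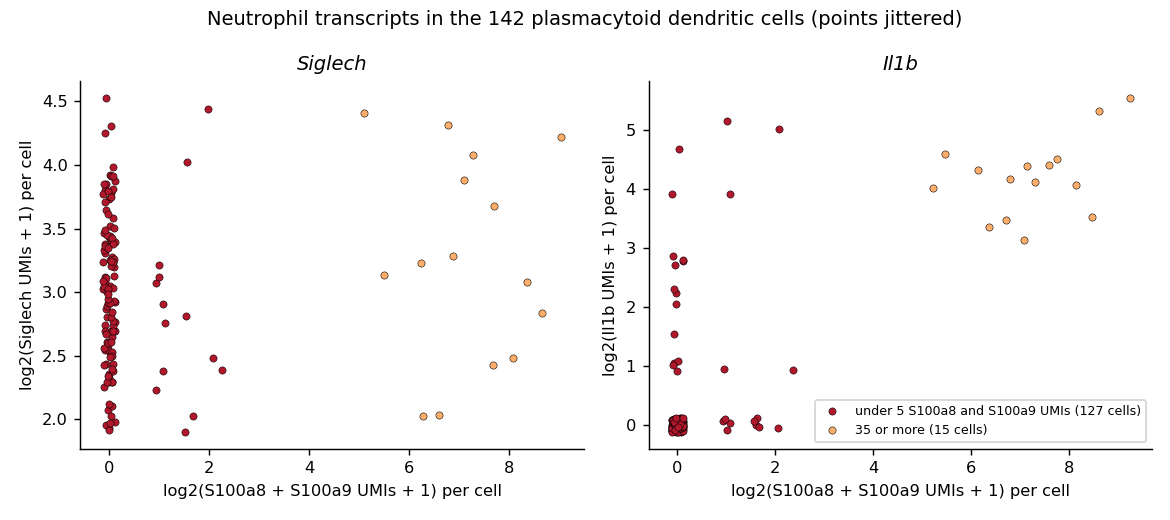
Siglech UMIs (left) and Il1b UMIs (right) against summed S100a8 and S100a9 UMIs in each plasmacytoid dendritic cell, all as log2 of the count plus 1 with a small jitter. The 15 cells at the right of each panel had 35 or more S100a8 and S100a9 UMIs, lay within the Siglech range of the rest, and all had Il1b.

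Of the other lineages, the surfactant gene Sftpc was found in 20 cells with up to 174 UMIs and Lyz2 in 36 cells with up to 107. Epithelial markers summed to 622 CPM in the plasmacytoid cells, 74.3 CPM in dendritic cells, 84.5 CPM in monocytes and 9737 CPM in all other cells. The sum was thus higher than in dendritic cells and monocytes, with log2 ratios of 3.06 (2.65 to 3.51) and 2.88 (2.52 to 3.26). UMIs of 2 or more of the 5 markers were found in 6 cells, with a range of 0 to 258 summed UMIs a cell. Dendritic cells and monocytes had been gated on the absence of Epcam, 1 of the 5 markers. Alveolar macrophage markers summed to 146 CPM against 6564 CPM in all other cells, and NK cell markers to 6.02 CPM against 226 CPM. The rule limited genes of the next sums. Interstitial macrophage markers came to 150.5 CPM against 2677 CPM, T cell markers to 24.1 against 487 CPM and B cell markers to 14.04 against 209.7 CPM. Endothelial and stromal markers summed to 138 CPM and 64.2 CPM, and mast cell or basophil markers had 1 UMI. The type 2 dendritic markers Cd209a and Clec10a summed to 311 CPM (264 to 364), with UMIs in 85 cells and of both in 13. That compares with 23.8 CPM in monocytes and 23.2 CPM in all other cells, and the dendritic cells were gated on them. The type 1 markers Xcr1 and Clec9a had 22 UMIs in 19 cells, and the mature dendritic markers 3 UMIs in 2 cells. The part of free RNA and of droplets with more than 1 cell in these levels was not tested.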

How the data were processed

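Single-cell suspensions of lung tumors from 4 mice were profiled by 3′ droplet sequencing. According to the submitters' processing notes the authors used Cell Ranger 3.0.2 and mm10, and they deposited 1 matrix of raw UMI counts (31055 features, 20351 cells) with no cell annotation. No column of per-sample values was left unused.

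Cells were gated on counts as given in the report. Dendritic cells had at least 3 H2-Aa UMIs and at least 2 summed UMIs of their subset's markers. Monocytes had at least 3 Lyz2, at least 1 Csf1r and at least 2 summed UMIs of subset markers. Counts were summed per group in Python 3.11.15 (numpy 2.4.6, pandas 2.3.3, scipy 1.17.1) and plotted with matplotlib 3.10.9. Levels carry exact Poisson intervals, ratios exact conditional intervals and shares exact binomial (Clopper-Pearson) intervals, all at 95%. Since the pool is 1 sample, no test was run. The calculation was tested on simulated data. Doublets were called with Scrublet in scanpy 1.11.5 at an expected rate of 6%, which marked 188 of 19892 cells (0.945%) and none of the plasmacytoid cells, and no cell was removed.

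Genes named are the choosing genes, members of the gene lists, and, outside lists and gates, the 15 with the largest ratio to all other cells and the 10 highest and 10 lowest against dendritic cells and against monocytes, leaving out mitochondrial, ribosomal protein and immunoglobulin or T cell receptor segment genes. Ly6a, the S100a8 and S100a9 cells and other genes named beside these were chosen after their values were seen. Some items are not reported here. The members and lists were chosen with earlier results of these data known. Multigene families (Klk1, Cd209, Iglc, Ly6 and interferon alpha genes) can share reads. Alternatives changed the gates, filters, pseudocount, scaling and thinning.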

Additional observations from a re-analysis of the deposited data

How the results depend on the processing

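Of 109 alternative values, 88 stayed within the counting interval (for gene counts, within 1.5 times), 21 moved beyond it and 0 changed direction. Some of the 88 could not move. Dropping the second marker left the same 142 cells, and the share of plasmacytoid cells does not depend on the comparator gates or the scaling. The count of 88 is therefore no measure of robustness. The cause of each shift was not tested beyond what the alternative itself removes. The share of plasmacytoid cells (0.714%) was 0.563% with at least 5 Siglech UMIs and 0.588% without the 25 cells that held 2 markers of another lineage. The log2 ratio of the identity sum to all other cells (4.23) was 4.36 without those cells, 4.30 with an upper gene limit at the 98th percentile, 4.30 as a mean of single-cell CPM and 4.31 without the 15 cells rich in S100a8 and S100a9. For MHC class II against dendritic cells (-2.17) these settings gave -2.07, -2.27, -2.31 and -2.09. The ER translocation ratio (0.65) was 0.73 without the cells with 2 markers of another lineage and 0.73 with stricter comparator gates. The ratio of interferon-stimulated genes to dendritic cells (-0.74) was -1.13 as a mean of single-cell CPM and -0.44 with the stricter gates. With a pseudocount of 50 CPM, 48 genes in place of 157 were at least 4-fold higher than in dendritic cells and 59 in place of 195 than in monocytes. Klk1 was found in 30.3% of cells at 500 UMIs, 43.0% at 1000, 58.5% at 2000 and 71.1% without thinning, and Tlr7 in 8.45% at 1000, 16.2% at 2000 and 29.6% without thinning. Leaving out the S100a8 and S100a9 cells, and H2-Aa from its list, were chosen after seeing the data. No paired analysis was possible because the pool has no map from cells to mice, and leaving out each mouse was not run for the same reason. At this depth 0 UMIs of Tlr9 or of an interferon gene allows up to 6.02 CPM by counting alone, which leaves aside reads shared between interferon alpha genes.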
